A study of Mus musculus with 12 samples.

Results

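The SLC25 family comprises the membrane carriers that exchange nucleotides, metabolites, cofactors and ions between mitochondria and cytosol. Its members were taken as the protein-coding genes named Slc25a followed by a number that reached a normalized count of 10 in at least 3 of 12 libraries. This left 38 genes of 44 such rows, in a table of 22915 genes of which 13184 met the same minimum. Primary cardiomyocytes from male C57/Bl6 mice aged 12 weeks were cultured for 24 h in normoxia with PBS, mLIF, mOSM or hlOSM, the cytokines at 25 ng/mL as labelled (the text of the study gives a lower concentration), with 3 libraries of total RNA per condition. Murine LIF signals through LIFR and murine OSM through OSMR, while hlOSM is murine OSM with a human AB loop and engages both receptors, so the comparisons ask what each receptor and their joint activation change. All 4 conditions share the isolation and culture, in which non-myocytes can remain. The study speaks of biological replicates, but no source used here states which libraries came from separate animals or preparations, so p-values measure the spread between these libraries, which may be technical.

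Most SLC25 proteins are built from repeated modules that span the inner mitochondrial membrane and shuttle substrates by alternately opening to either side. In the heart, the ADP/ATP carriers and the phosphate carrier Slc25a3 feed ATP synthase, the aspartate/glutamate and oxoglutarate carriers form the malate-aspartate shuttle, and the carnitine-acylcarnitine carrier brings in fatty acids. Slc25a46, of the outer membrane, and Slc25a17, of peroxisomes, belong to the family by sequence.

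RefSeq promoter windows, of 250 bases before to 50 bases after a transcript start (GRCm38.p6), matched 29 of the 38 carriers. The bases upstream of the start are shown for Slc25a30 and Slc25a34, the carriers with the largest rise and the largest fall with hlOSM, and for Slc25a36, which had the smallest adjusted p. They lie at chr14:75787038-75787287, chr4:141623835-141624084 and chr9:97111042-97111291, each on the minus strand. Capitals mark the letters TTCNNNGAA of STAT factors, which act downstream of both receptors, and the E-box CACGTG, which Myc binds.
Slc25a30: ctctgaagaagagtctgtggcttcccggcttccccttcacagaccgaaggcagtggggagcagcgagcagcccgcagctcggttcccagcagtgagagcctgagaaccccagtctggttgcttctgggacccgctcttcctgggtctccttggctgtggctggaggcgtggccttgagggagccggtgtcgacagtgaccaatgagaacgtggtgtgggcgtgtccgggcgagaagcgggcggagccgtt
Slc25a34: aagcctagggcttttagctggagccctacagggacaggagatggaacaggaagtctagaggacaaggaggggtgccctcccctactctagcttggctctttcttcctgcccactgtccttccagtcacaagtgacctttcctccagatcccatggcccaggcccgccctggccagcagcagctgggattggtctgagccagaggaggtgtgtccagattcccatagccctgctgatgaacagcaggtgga
Slc25a36: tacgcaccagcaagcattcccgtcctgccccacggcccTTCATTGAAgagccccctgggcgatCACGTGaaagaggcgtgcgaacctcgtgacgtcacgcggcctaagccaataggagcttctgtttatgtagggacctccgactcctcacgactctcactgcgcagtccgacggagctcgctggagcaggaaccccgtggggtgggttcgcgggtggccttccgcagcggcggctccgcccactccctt

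Among the 29 carriers with a window, Slc25a36 was the only one with TTCNNNGAA. It stood in 1 of their 38 windows (2.63%) against 8.3% of all 32851 windows. Carriers without a window, Slc25a37 among them, were not searched. The E-box stood in 18.4% of carrier windows and 7.15% of all, in Slc25a1, Slc25a13, Slc25a14, Slc25a15, Slc25a33 and Slc25a36. Carrier windows were also richer in G and C, with a median of 59.8% against 52.7%. The motif TCAAGGTCA of estrogen-related receptors, searched on both strands like the others, stood in 0 carrier windows and in 0.423% of all. These are matches of letters, not binding sites.

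The carriers spanned a wide range of levels. Their mean normalized count over the 12 libraries ran from 9.5 for Slc25a2 to 762 for Slc25a3, with a median of 94, and 35 of 38 reached 10 in all libraries. Slc25a2 lay just inside the minimum, with 16, 10 and 8 in PBS and at least 10 in 5 libraries. Slc25a35 lay just outside it, with at least 10 in 2 libraries and values between 4 and 12. Slc25a18, Slc25a29, Slc25a31, Slc25a43 and Slc25a48 never reached 10 and were not tested.

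Levels of different genes were compared per kilobase of exon, taken over all annotated transcripts and not only those expressed. The order of genes depends on this length, which was 5550 bases for Slc25a3 and 2353 for Slc25a4. Before division by it, their PBS means were 773 and 842 normalized counts. In PBS-treated cardiomyocytes Slc25a4, the ADP/ATP carrier of heart and muscle, stood highest at 358 ± 12.9 normalized counts per kb (SD, n = 3). It was followed by Slc25a5, the ADP/ATP carrier of many tissues, at 225 ± 6.85, the oxoglutarate carrier Slc25a11 at 199 ± 18.7 and Slc25a3 at 139 ± 4.33 per kb. These 4 did not overlap among their PBS libraries, although the lowest Slc25a5 value (221) lay close to the highest of Slc25a11 (220.3). Slc25a46, which acts in mitochondrial fission, came next at 87.7 ± 3.16 per kb. Its lowest library (84.8) lay just above the highest (84.2) of the sixth, Slc25a12. Slc25a12 (81.0 ± 2.87 per kb) and Slc25a13 (74.6 ± 7.36), both aspartate/glutamate carriers, overlapped. From Slc25a17, the fourteenth, to Slc25a53, the lowest at 1.93 ± 0.316 per kb, every neighbouring pair overlapped except Slc25a15 and Slc25a30.

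**Figure D1:**
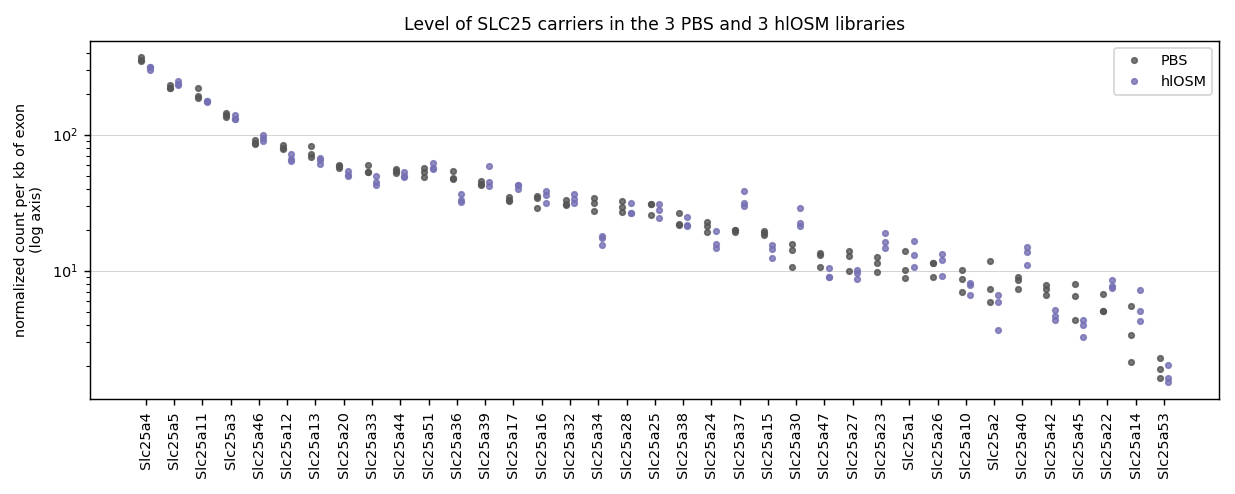
Normalized count per kb of exon (log axis) of 37 of the 38 carriers, ordered by their PBS mean, with 1 point per library for the 3 PBS and 3 hlOSM libraries. Slc25a4 is the highest in PBS (358 per kb) and Slc25a53 the lowest (1.93 per kb).

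Cell type markers moved with the treatments. The summed level of 8 cardiomyocyte genes was 46773 to 48433 in PBS, 40523 to 42244 under mLIF, 32878 to 36949 under mOSM and 33803 to 36202 under hlOSM. Most of that sum was Ttn, at 32687, 32934 and 33150 in PBS. Of the 8 genes, 6 were lower in each OSM comparison and 5 with mLIF. Of all genes tested, 4.44% were lower with mLIF, 15.8% with mOSM and 19.8% with hlOSM. Fewer cardiomyocytes and less of this RNA per cardiomyocyte cannot be told apart in bulk libraries. The sum of 8 endothelial genes was 1188 to 1262 in PBS and 1201 to 1266 with mLIF, against 1471 to 1700 with mOSM and 1477 to 1590 with hlOSM. Of these, 6 were higher with mOSM and 6 with hlOSM (15.4% and 18.2% of all genes), and 0 were lower. With mLIF, 0 were higher and 1 lower. Sums of 8 smooth muscle and pericyte genes lay at 1370 to 1697 in PBS, 1233 to 1291 under mLIF, 937 to 959 under mOSM and 845 to 913 under hlOSM. Most of that sum was a single gene, Abcc9, at 925, 858 and 1017 in PBS. Of the 7 genes tested, 6 were lower with mOSM, 6 with hlOSM and 1 with mLIF, and 0 were higher. Fibroblast sums ran from 2296 to 2526 in PBS, 2110 to 2251 under mLIF, 2459 to 2885 under mOSM and 2307 to 2540 under hlOSM, sums that hold opposite changes of single genes. Of the 8 fibroblast genes, 2 were higher and 3 lower with mOSM and 3 higher and 5 lower with hlOSM, among them Dcn (1.09 and 0.98 on the log2 scale), Col3a1 (1.07 and 1.04), Col1a2 (-0.88 and -0.98) and Pdgfra (-0.52 and -0.59). Macrophage sums ran from 305 to 322, 284 to 328, 346 to 394 and 322 to 392 in the same order, with 3 of 8 genes under 10 in every library. Among these genes only Cd68 rose (0.61, 1.22 and 1.28 with mLIF, mOSM and hlOSM), Lyz2 was lower with hlOSM (-0.27), and Ptprc, Adgre1 and Csf1r were not called. Of all these markers, 0 stood at 0 in every library, and their part in the carrier results was not tested. Library totals of the normalized counts ran from 2745748 to 2911891.

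Single carriers moved up and down within the family under mOSM and hlOSM, while few moved with mLIF. With hlOSM, 6 carriers were higher and 10 lower than in PBS at an adjusted p under 0.05, which is 42.1% of the 38 against a background of 37.9% of all tested genes. By direction that background was 18.2% higher and 19.8% lower. With mOSM, 6 carriers were higher and 7 lower (34.2%, background 31.2%, or 15.4% higher and 15.8% lower). With mLIF, 2 were higher and 0 lower (5.26%, background 9.91%, or 5.47% higher and 4.44% lower), while 7 of 38 had an unadjusted p under 0.05, beside 25.7% of all genes. These shares lay near those of all genes or, with mLIF, below them. By the libraries themselves, without overlap, hlOSM lay above PBS in 6 carriers and below it in 11 (background 22.7% and 24.3%), mOSM in 5 and 8 (20.2% and 19.9%), and mLIF in 5 and 4 (14.7% and 15.6%). The median log2 fold change of the 38 carriers was 0.04 for mLIF, -0.08 for mOSM and -0.07 for hlOSM, beside 0.00, -0.00 and -0.01 over all genes tested.

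The 3 comparisons share the PBS libraries, so their lists are given side by side and not counted as independent. With mOSM, Slc25a17, Slc25a22, Slc25a23, Slc25a30, Slc25a37 and Slc25a40 were higher, and Slc25a4, Slc25a11, Slc25a12, Slc25a15, Slc25a24, Slc25a34 and Slc25a36 were lower. With hlOSM, the higher carriers were Slc25a17, Slc25a22, Slc25a23, Slc25a30, Slc25a37 and Slc25a40. The lower ones were Slc25a4, Slc25a11, Slc25a12, Slc25a13, Slc25a15, Slc25a20, Slc25a33, Slc25a34, Slc25a36 and Slc25a42. With mLIF, Slc25a16 and Slc25a37 were higher. The median standard error with hlOSM was 0.07 (log2) in the 12 carriers with a mean of 200 or more, 0.11 in the 16 between 50 and 200, and 0.21 in the 10 under 50.

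Some of these calls depended on how the replicate number was treated. It held 1.70% of the spread within conditions, against 25% expected without an effect. Over 6626 genes with a mean of 100 or more, replicate 3 minus replicate 1, averaged over conditions, had an SD of 0.0019 (log2). The fit thus counts more residual degrees of freedom than these values hold, and its p-values tend to be too small. Calls and p-values come from this fit, without the number, unless stated. With the number as a term in the fit, 4 carriers were higher and 5 lower with mOSM (background 25.3% of all genes) and 6 and 6 with hlOSM (background 31.2%), while both mLIF calls passed. Slc25a15, Slc25a17, Slc25a22 and Slc25a24 then did not pass with mOSM, at adjusted p = 0.093, 0.106, 0.076 and 0.0507. With hlOSM, Slc25a11, Slc25a13, Slc25a20 and Slc25a33 did not pass, at adjusted p = 0.074, 0.059, 0.075 and 0.098.

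**Figure D2:**
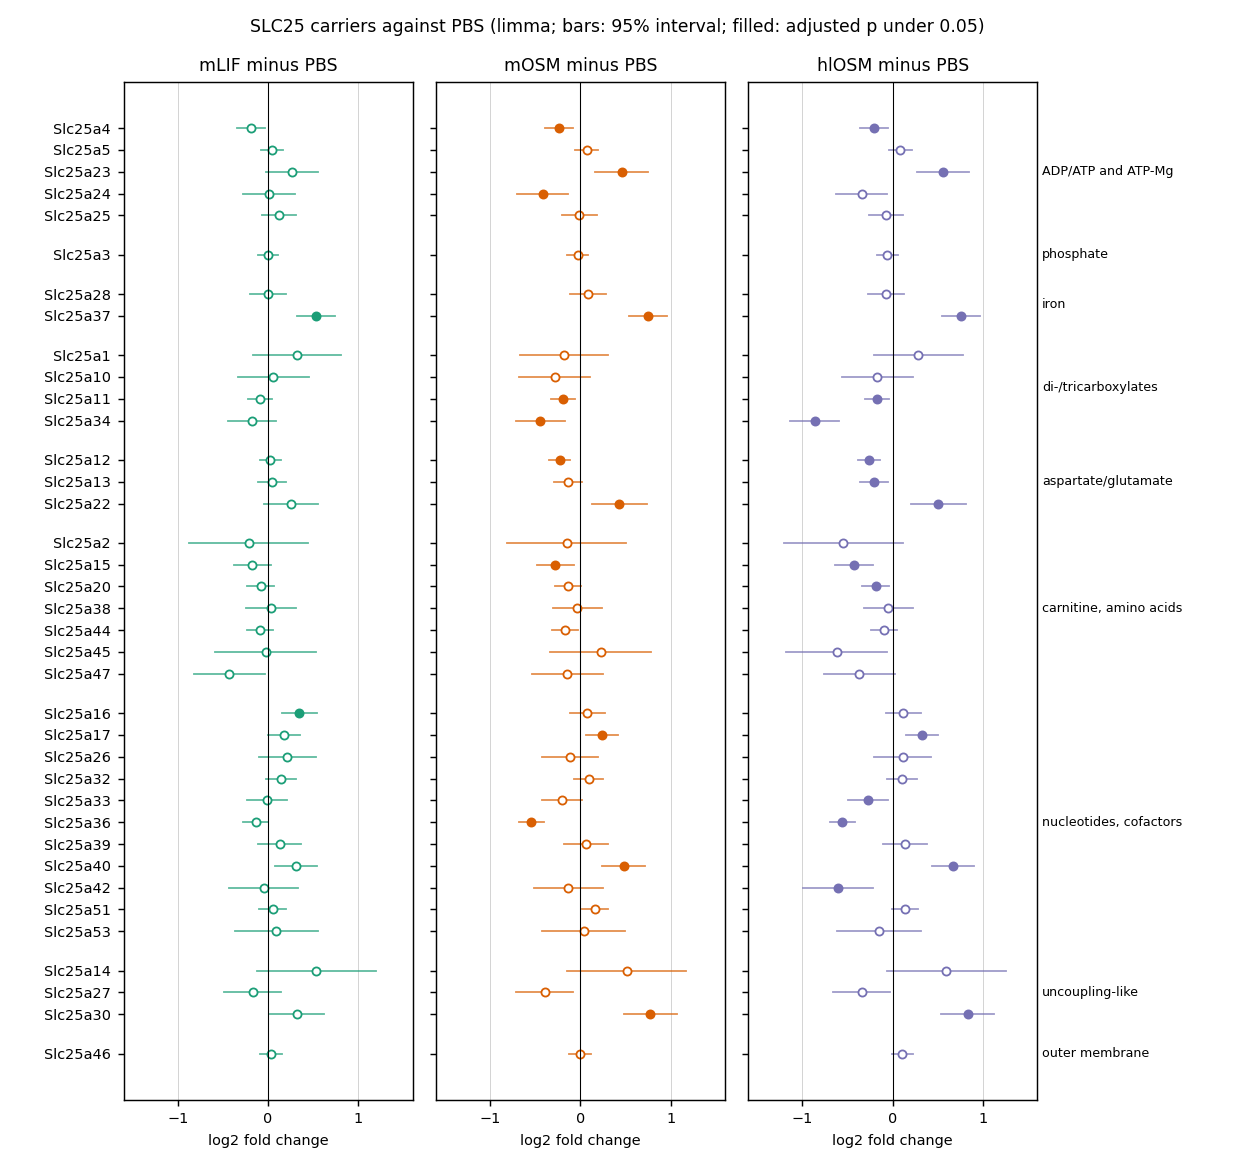
Log2 fold change against PBS (x axis) of 37 of the 38 carriers, grouped by substrate, for mLIF, mOSM and hlOSM, with 95% intervals from limma and filled points at an adjusted p under 0.05. Filled points number 2, 13 and 16, and their largest changes are 0.83 for Slc25a30 and -0.87 for Slc25a34, both with hlOSM.

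The mitochondrial iron importer mitoferrin-1, Slc25a37, passed the test in each of the 3 comparisons with PBS. Its normalized counts were 116, 119 and 120 in PBS, 168, 161 and 187 under mLIF, 221, 212 and 168 under mOSM, and 181, 190 and 232 under hlOSM. All 9 cytokine-treated libraries lay above all PBS libraries. The log2 fold change was 0.53 ± 0.10 (SE) with mLIF (limma, adjusted p = 0.002). It reached 0.74 ± 0.10 with mOSM (adjusted p = 5.94e-06), and hlOSM gave 0.75 ± 0.10 (adjusted p = 3.92e-06). Each of these calls held in all 23 alternative settings. Of its exonic bases, 6.33% lie opposite other genes, and the strand setting of the counting is not given. Between hlOSM and mLIF the difference was 0.22 (95% interval 0.01 to 0.43, adjusted p = 0.158), and mOSM differed from mLIF by 0.21 (0.00 to 0.42, adjusted p = 0.203).

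Slc25a28, mitoferrin-2, is the broadly expressed paralogue. It stood at 101, 121 and 111 in PBS and at 117, 99 and 100 under hlOSM, and the groups overlapped. The mLIF, mOSM and hlOSM log2 fold changes were -0.00, 0.08 and -0.08 (95% interval of the last -0.28 to 0.13), at adjusted p = 0.994, 0.566 and 0.574. The share of Slc25a28 in the summed mitoferrins was 48.3% ± 1.95 in PBS, 39.2% ± 0.792 under mLIF, 37.2% ± 5.02 under mOSM and 34.5% ± 4.58 under hlOSM (SD, n = 3). No cytokine library overlapped PBS, at an exact two-sided permutation p = 0.1 for each, the smallest that 3 against 3 can give. A share within a library does not depend on the scaling between libraries.

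Slc25a30, a carrier of kidney mitochondria related to the uncoupling proteins, had the largest increase. It was at 72, 65 and 49 in PBS, 75, 66 and 91 under mLIF, 100, 117 and 100 under mOSM, and 97, 103 and 131 under hlOSM. Libraries of mOSM and hlOSM lay above those of PBS, and mLIF overlapped PBS. It rose by 0.77 ± 0.14 (log2) with mOSM (adjusted p = 0.000218) and 0.83 ± 0.14 with hlOSM (adjusted p = 8.15e-05), a fold of 1.71 and 1.77. With mLIF it was 0.32 ± 0.14 (adjusted p = 0.159). Against mLIF directly, the carrier was higher with mOSM (0.45, adjusted p = 0.040) and hlOSM (0.51, adjusted p = 0.016), calls that ended at adjusted p = 0.205 and 0.104 without mLIF replicate 2. The other uncoupling-like carriers, Slc25a14 and Slc25a27, were not called. Slc25a14, with a mean of 11.6, was at 0.53, 0.51 and 0.59 with mLIF, mOSM and hlOSM (adjusted p = 0.3, 0.239 and 0.151). Slc25a27 was at -0.39 (adjusted p = 0.052) for mOSM and -0.34 (adjusted p = 0.079) for hlOSM.

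Slc25a40 and Slc25a39 are glutathione carriers. Slc25a40 was at 72, 75 and 61 in PBS, 79, 89 and 90 under mLIF, 94, 96 and 100 under mOSM, and 114, 93 and 126 under hlOSM. Every cytokine library lay above PBS. The carrier rose by 0.48 ± 0.11 on the log2 scale with mOSM (adjusted p = 0.002) and by 0.67 ± 0.11 with hlOSM (adjusted p = 7.49e-05). With mLIF the value was 0.31 ± 0.11 (adjusted p = 0.087). It was higher with hlOSM than with mLIF by 0.36 (adjusted p = 0.034), which ended at adjusted p = 0.171 without hlOSM replicate 3. Slc25a39 had log2 fold changes of 0.13, 0.06 and 0.14 with the 3 cytokines, none called.

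**Figure D3:**
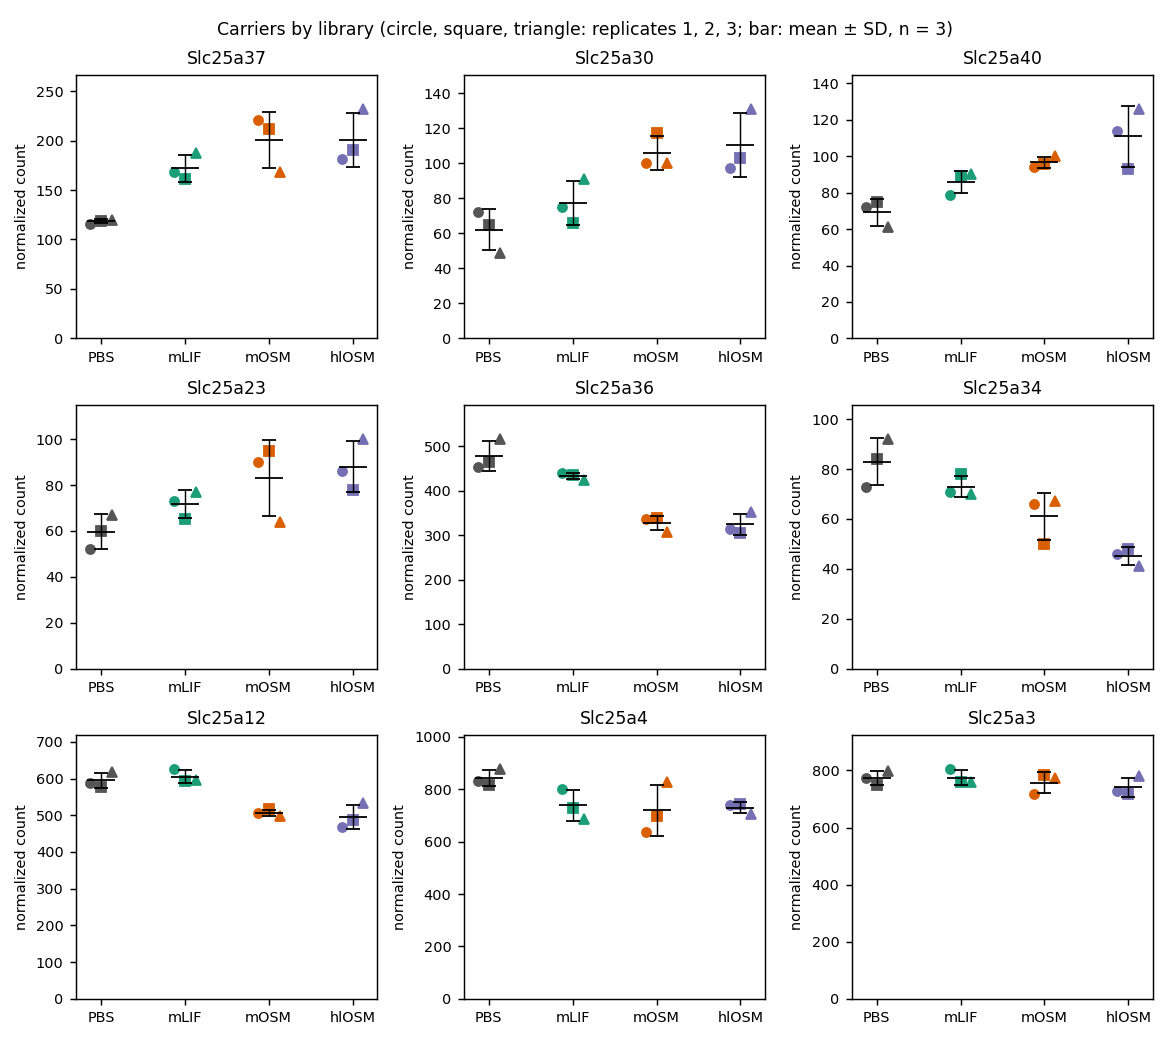
Normalized count (y axis, from 0) of 9 carriers in every library by condition, with the mean ± SD of 3 libraries as bars. All cytokine libraries of Slc25a37 and Slc25a40 lie above PBS, and the mOSM and hlOSM libraries of Slc25a36, Slc25a34 and Slc25a12 lie below it.

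Slc25a36 and Slc25a33 carry pyrimidine nucleotides into mitochondria. Slc25a36 stood at 454, 464 and 516 in PBS, 440, 435 and 425 under mLIF, 336, 338 and 308 under mOSM, and 315, 306 and 352 under hlOSM. Libraries of every cytokine lay below PBS, those of mOSM and hlOSM also below mLIF. The log2 fold change was -0.54 ± 0.07 with mOSM (adjusted p = 1.48e-06) and -0.56 ± 0.07 with hlOSM (adjusted p = 7.56e-07), and both held in all 23 alternatives. With mLIF it was -0.14 ± 0.07 (adjusted p = 0.193), and the direct differences from mLIF were -0.40 with mOSM (adjusted p = 0.000183) and -0.42 with hlOSM (adjusted p = 9.66e-05). Slc25a33 was at 100, 100 and 112 in PBS and 84, 81 and 93 under hlOSM, a change of -0.27 ± 0.11 (adjusted p = 0.0496). This call passed in 9 of 23 alternatives, with adjusted p = 0.174 without PBS replicate 3, and 14.9% of its exonic bases lie opposite another gene.

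Other carriers of cofactors moved in both directions. Slc25a42, a coenzyme A carrier, was at 40, 44 and 47 in PBS, 50, 31 and 48 under mLIF, 38, 51 and 32 under mOSM, and 26, 28 and 31 under hlOSM. Its hlOSM libraries lay below PBS and mOSM, and 1 of them equalled the lowest of mLIF. Its change with hlOSM was -0.61 ± 0.18 (adjusted p = 0.012), beside -0.13 with mOSM (adjusted p = 0.621) and -0.05 with mLIF. The direct difference between hlOSM and mOSM did not pass for this carrier either, as the direct comparison of both OSM proteins called none. Slc25a17 was higher by 0.33 with hlOSM (adjusted p = 0.005) and by 0.24 with mOSM (adjusted p = 0.041), the latter in 11 of 23 alternatives, with adjusted p = 0.119 without PBS replicate 1. Slc25a16, named as a coenzyme A carrier, was at 138, 164 and 169 in PBS and 209, 188 and 201 under mLIF, and was called with mLIF alone (0.35 ± 0.09, adjusted p = 0.021). Without PBS replicate 1 its adjusted p was 0.106.

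Of the 4 di- and tricarboxylate carriers, Slc25a11 and Slc25a34 were lower with both OSM proteins. Slc25a34, whose substrate is not settled, was at 73, 84 and 92 in PBS, 71, 78 and 70 under mLIF, 66, 50 and 67 under mOSM, and 46, 48 and 41 under hlOSM. Both OSM groups lay below PBS without overlap, the hlOSM libraries lowest. Its log2 fold change was -0.87 ± 0.13 with hlOSM (fold 0.549, adjusted p = 1.48e-05) and -0.44 ± 0.13 with mOSM (adjusted p = 0.011), the latter with adjusted p = 0.092 without mOSM replicate 2. Against mLIF, hlOSM was lower by a log2 difference of -0.69 (adjusted p = 0.000572), which held in all 23 alternatives.

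Slc25a11, which exchanges malate for oxoglutarate, was at 392, 407 and 467 in PBS, 416, 382 and 389 under mLIF, 367, 373 and 361 under mOSM, and 368, 376 and 377 under hlOSM. Both OSM groups lay below PBS by a narrow gap. On the log2 scale it changed by -0.20 ± 0.06 with mOSM (adjusted p = 0.023) and -0.17 ± 0.06 with hlOSM (adjusted p = 0.041). Both ended without PBS replicate 3, at -0.12 (adjusted p = 0.18) and -0.10 (adjusted p = 0.272). The mOSM call passed in 20 of 23 alternatives and the hlOSM call in 12 of 23. With hlOSM it also ended without any 1 of the hlOSM replicates, at adjusted p from 0.062 to 0.102. The citrate carrier Slc25a1 was at 19, 22 and 30 in PBS and changed by 0.32, -0.18 and 0.28 with mLIF, mOSM and hlOSM, none called (adjusted p = 0.41, 0.605 and 0.362). The dicarboxylate carrier Slc25a10 was at 30, 24 and 35 in PBS and changed by 0.06, -0.28 and -0.17, none called (adjusted p = 0.883, 0.274 and 0.504). At these levels the 95% intervals with hlOSM were wide, -0.20 to 0.77 for Slc25a1 and -0.56 to 0.22 for Slc25a10.

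The aspartate/glutamate carriers Slc25a12 and Slc25a13, the calcium-regulated partners of Slc25a11 in the malate-aspartate shuttle, were lower with hlOSM. Slc25a12 was at 589, 577 and 618 in PBS, 625, 593 and 596 under mLIF, 506, 516 and 499 under mOSM, and 468, 488 and 532 under hlOSM. Both OSM groups lay below PBS and mLIF without overlap. The carrier changed by -0.23 ± 0.06 (log2) with mOSM (adjusted p = 0.004), -0.26 ± 0.06 with hlOSM (adjusted p = 0.000901) and 0.02 ± 0.06 with mLIF (95% interval -0.09 to 0.14). Differences from mLIF of -0.25 with mOSM (adjusted p = 0.004) and -0.29 with hlOSM (adjusted p = 0.001) also passed, and these 4 calls held in all 23 alternatives.

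Slc25a13, citrin, was at 262, 273 and 315 in PBS, 289, 292 and 290 under mLIF, 265, 267 and 237 under mOSM, and 247, 230 and 257 under hlOSM. Only the hlOSM libraries lay apart from PBS. It changed by -0.21 ± 0.07 with hlOSM (adjusted p = 0.031) and by -0.14 ± 0.07 with mOSM (adjusted p = 0.157). Without PBS replicate 3 the former was -0.13 (adjusted p = 0.204). It was also lower with hlOSM than with mLIF (-0.25, adjusted p = 0.024), with adjusted p = 0.114 without hlOSM replicate 2. The share of Slc25a13 in the pair was 32.2% ± 1.49 in PBS and 32.4% ± 0.730, 33.6% ± 1.18 and 33.1% ± 1.32 with mLIF, mOSM and hlOSM, with overlapping groups (exact permutation p = 0.9, 0.2 and 0.5). Of the 4 shuttle enzymes Got1, Got2, Mdh1 and Mdh2, 0 were called with mLIF or mOSM and Mdh1 was lower with hlOSM (-0.18, adjusted p = 0.040, or 0.062 with replicate number as a term). Of all genes tested, 9.91%, 31.2% and 37.9% were called with mLIF, mOSM and hlOSM.

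Slc25a22 carries glutamate without aspartate. It was at 30, 30 and 40 in PBS, 42, 41 and 36 under mLIF, 48, 46 and 41 under mOSM, and 45, 46 and 51 under hlOSM. Both OSM groups lay above PBS, mOSM by 1 count. The difference from PBS was 0.43 ± 0.15 with mOSM (adjusted p = 0.028) and 0.50 ± 0.15 with hlOSM (adjusted p = 0.009). The mOSM call ended without PBS replicate 1 or 2 and without mOSM replicate 1 or 2 (adjusted p up to 0.105), and the hlOSM call held in the 22 alternatives that tested this gene.

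The major ADP/ATP carrier fell with both OSM proteins, and its paralogue did not pass the test. Slc25a4 stood at 831, 818 and 876 in PBS, 801, 729 and 686 under mLIF, 635, 697 and 827 under mOSM, and 740, 743 and 706 under hlOSM. All libraries of mLIF and hlOSM lay below PBS, and mOSM replicate 3 overlapped it. Its log2 fold change was -0.23 ± 0.07 for mOSM (adjusted p = 0.019), -0.21 ± 0.07 for hlOSM (adjusted p = 0.032) and -0.19 ± 0.07 for mLIF (adjusted p = 0.105). Leaving out mOSM replicate 1 gave -0.15 (adjusted p = 0.146) for mOSM, and leaving out PBS replicate 3 gave -0.18 (adjusted p = 0.111) for hlOSM. The mOSM call passed in 19 of 23 alternatives and the hlOSM call in 15 of 23. The latter also ended without any 1 of the hlOSM replicates, at adjusted p from 0.0509 to 0.0996. The summed cardiomyocyte markers, mostly Ttn, fell with all 3 cytokines, as given above, and their part in the Slc25a4 values was not tested.

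Slc25a5 was at 365, 364 and 384 in PBS, 407, 367 and 374 under mLIF, 369, 396 and 403 under mOSM, and 383, 390 and 407 under hlOSM. Each cytokine group overlapped PBS. Its log2 fold changes were 0.04, 0.07 and 0.08 (adjusted p = 0.697, 0.424 and 0.293), with a 95% interval of -0.04 to 0.21 for hlOSM. The share of Slc25a5 in the sum with Slc25a4 was 30.6% ± 0.173 in PBS, 34.2% ± 0.984 under mLIF, 35.2% ± 2.17 under mOSM and 35.0% ± 1.34 under hlOSM. All 9 cytokine libraries, between 32.8% and 36.8%, lay above the PBS libraries, at an exact permutation p = 0.1 for each cytokine, the smallest possible.

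**Figure D4:**
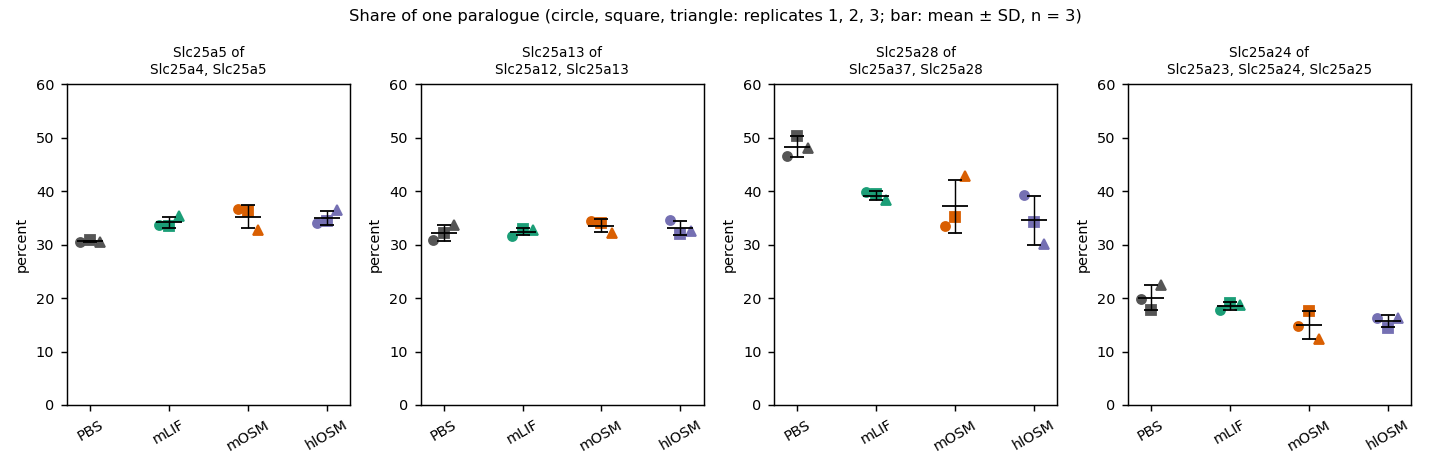
Share (percent, y axis) of 1 carrier in the summed normalized counts of its paralogues in every library, with the mean ± SD of 3 libraries as bars. The Slc25a5 share is above PBS in all 9 cytokine libraries and the Slc25a28 share below it, while the Slc25a13 shares overlap.

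Of the 3 calcium-regulated ATP-Mg/phosphate carriers, Slc25a23 was higher with both OSM proteins, Slc25a24 lower with mOSM, and Slc25a25 was not called. Slc25a23 was at 52, 60 and 67 in PBS, 73, 65 and 77 under mLIF, 90, 95 and 64 under mOSM, and 86, 78 and 100 under hlOSM. The hlOSM libraries lay above PBS and mOSM replicate 3 fell within it. The carrier was higher by 0.55 ± 0.14 on the log2 scale with hlOSM (adjusted p = 0.003) and by 0.46 ± 0.14 with mOSM (adjusted p = 0.016), the latter with adjusted p = 0.097 without mOSM replicate 2. Slc25a24, at 73, 66 and 78 in PBS and 55, 64 and 44 under mOSM, was lower with mOSM (-0.42 ± 0.14, adjusted p = 0.022) and at -0.35 (adjusted p = 0.0503) with hlOSM. Without mOSM replicate 3 the mOSM value was -0.28 (adjusted p = 0.131). Slc25a25 had log2 fold changes between -0.07 and 0.12, none called. The share of Slc25a24 in the 3 was 20.1% ± 2.36 in PBS, 18.5% ± 0.695 under mLIF, 14.9% ± 2.62 under mOSM and 15.7% ± 1.12 under hlOSM. Shares with mOSM and hlOSM did not overlap PBS (exact permutation p = 0.1 each), and those with mLIF did (p = 0.4, exact permutation test).

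Slc25a3, which supplies phosphate and copper to the matrix, was at 774, 749 and 797 in PBS and at 804, 760 and 759 under mLIF, 716, 784 and 772 under mOSM, and 728, 718 and 780 under hlOSM. The groups overlapped in each comparison. Log2 fold changes were 0.00, -0.03 and -0.06 with mLIF, mOSM and hlOSM (adjusted p = 0.988, 0.709 and 0.41). Their 95% intervals, -0.11 to 0.11, -0.14 to 0.08 and -0.17 to 0.05, were among the narrowest of the family.

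Among the 7 carriers of carnitine and amino acids, 0 were higher with any cytokine, and 1 with mOSM and 2 with hlOSM were lower, beside 15.8% and 19.8% of all genes. Slc25a20, the carnitine-acylcarnitine carrier, was at 285, 273 and 291 in PBS, 279, 267 and 257 under mLIF, 244, 243 and 286 under mOSM, and 240, 260 and 244 under hlOSM. Its hlOSM libraries lay below PBS. It changed by -0.19 ± 0.07 (log2) with hlOSM (adjusted p = 0.039), -0.14 with mOSM (adjusted p = 0.148) and -0.08 with mLIF (adjusted p = 0.509), the first with adjusted p = 0.12 without hlOSM replicate 1. Of the 5 carnitine enzymes, Cpt2 and Crat were lower with mOSM (both -0.20) and hlOSM (-0.24 and -0.21), Cpt2 with mOSM at adjusted p = 0.070 once replicate number was a term. The ornithine carrier Slc25a15 was at 111, 103 and 106 in PBS, 90, 81 and 93 under mOSM and 70, 87 and 81 under hlOSM. It changed by -0.43 ± 0.10 (log2) with hlOSM (adjusted p = 0.002) and by -0.28 ± 0.10 with mOSM (adjusted p = 0.038), the latter in 14 of 23 alternatives, with adjusted p = 0.159 without mOSM replicate 2. Slc25a2, Slc25a38, Slc25a44, Slc25a45 and Slc25a47 were not called.

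Among carriers not called with any cytokine were the S-adenosylmethionine carrier Slc25a26, the folate carrier Slc25a32, the NAD carrier Slc25a51 and Slc25a53. Slc25a46 had log2 fold changes of 0.03, -0.00 and 0.11, with a 95% interval of -0.01 to 0.23 for hlOSM.

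The direct comparison of both OSM proteins called 0 of 38 carriers (limma, smallest adjusted p = 0.385), beside 0.106% of all genes. At an unadjusted p under 0.05 it had 4 carriers (background 7.49%). The 2 carriers without overlap that were higher and the 3 that were lower stand beside backgrounds of 4.12% and 5.62%. Slc25a45, a carrier at low level, was at 18, 16 and 27 under mOSM and 12, 11 and 9 under hlOSM, a log2 difference of -0.85 (95% interval -1.40 to -0.29, adjusted p = 0.394). The interaction, which asks whether hlOSM differs from mOSM as mLIF differs from PBS, also called 0 carriers (background 0.167%, smallest adjusted p = 0.135), with 4 at an unadjusted p under 0.05 (background 11.5%). Against mLIF, mOSM had 1 carrier higher and 3 lower (10.5%, background 11.8%, or 6.05% higher and 5.76% lower). Higher was Slc25a30, and lower were Slc25a12, Slc25a36 and Slc25a24 (-0.43, adjusted p = 0.043, and 0.219 without mOSM replicate 3). For hlOSM against mLIF, Slc25a30 and Slc25a40 were higher and Slc25a12, Slc25a13, Slc25a34, Slc25a36 and Slc25a42 lower (18.4%, background 16.6%, or 7.42% higher and 9.22% lower). The Slc25a42 difference was -0.56 (adjusted p = 0.041), with adjusted p = 0.193 without mLIF replicate 1. With replicate number as a term, Slc25a24 and Slc25a30 for mOSM and Slc25a13, Slc25a40 and Slc25a42 for hlOSM no longer differed from mLIF at the threshold, with adjusted p from 0.051 to 0.098.

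The summed level of the 38 carriers was 6903, 6910 and 7347 in PBS, 7250, 6952 and 7085 under mLIF, 6647, 6814 and 6720 under mOSM, and 6574, 6587 and 7071 under hlOSM. Only the mOSM libraries lay apart from PBS. The means differed from PBS by 0.600% for mLIF, -4.63% for mOSM and -4.39% for hlOSM, at exact permutation p = 0.8, 0.1 and 0.3. In normalized counts these differences were 42.3, -326 and -309. Without PBS replicate 3, the highest of the PBS sums, those of mOSM and hlOSM were -180 and -163, and without mLIF replicate 1 that of mLIF was -34.8. As a share of the library total the sum was 0.246%, 0.252%, 0.239% and 0.241% in PBS, mLIF, mOSM and hlOSM, with overlapping groups (exact permutation p = 0.3, 0.4 and 0.2).

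Related genes outside the Slc25a names were called in some lists and not in others, beside the 9.91%, 31.2% and 37.9% of all genes called with mLIF, mOSM and hlOSM. Ucp2, Ucp3, Mtch1 and Mtch2, which belong to the same protein family, had 0 calls with any cytokine. Of 13 genes that import carriers into the inner membrane, Agk, a lipid kinase of the TIM22 complex, was higher with all 3 cytokines, by 0.48 with mLIF (adjusted p = 0.017), 0.74 with mOSM (adjusted p = 7.86e-05) and 0.64 with hlOSM (adjusted p = 0.000314). With hlOSM the receptor Tomm70a was also higher (0.18) and Timm29 lower (-0.17, adjusted p = 0.037, or 0.081 with replicate number as a term). The 3 porins of the outer membrane had 0 calls. Of the pyruvate carrier subunits, Mpc2 was lower with mOSM (-0.20, adjusted p = 0.038, or 0.079 with replicate number as a term) and Mpc1 was not called. Among 15 other inner membrane transporters and their regulators, 0 were higher and 2 lower under mLIF, 2 and 2 under mOSM, and 3 and 5 under hlOSM, of which 0, 3 and 7 passed with replicate number as a term. The largest of these changes with hlOSM were in 3 sideroflexins. They were Sfxn5 (0.95, adjusted p = 0.004), Sfxn3 (-0.74, adjusted p = 0.007) and Sfxn1 (0.34, adjusted p = 0.004), a mitochondrial serine transporter.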

How the data were processed

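The 12 libraries were prepared from total RNA of cultured cardiomyocytes with a stranded kit. Per the labels and the study's methods, reads were trimmed, aligned to mm10 with STAR 2.7.7a and counted over Ensembl exons with featureCounts 1.6.5, leaving out reads of several genes or places. The strand setting of the counting and the normalization are not given in the sources used here. The authors deposited normalized counts rounded to whole numbers, treated here as a score: no read depth can be read from them, and no counting interval is given.

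log2(value + 1) of 13184 genes (10 or more in at least 3 libraries) was fitted with limma 3.58.1 (R 4.3.3; eBayes with trend) over 4 conditions in 1 fit, with Benjamini-Hochberg adjustment over all these genes. A fold change on this scale understates the change of low genes. Sums and shares were compared by exact permutation (scipy 1.17.1). Scripts were tested on simulated data, and 23 alternative settings were run. Coordinates of 37 of 38 carriers were those of GENCODE M21, whose exons gave lengths. Named were carriers called with a log2 change of at least 0.5, and a list given by name. The carriers and lists were chosen with earlier results of these data known. Of 13 genes listed for the mitochondrial chromosome, 0 were found by name in the deposited table, so none could be analysed. 1 carrier counted among the 38 is not reported here.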

Additional observations from a re-analysis of the deposited data

How the results depend on the processing

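Same-numbered libraries did not deviate together: their deviations from the condition means correlated between -0.406 and -0.151 over 18 pairs, those of different numbers between 0.00438 and 0.328, and 0 libraries correlated best with their own number. Replicate number held 1.70% of the spread within conditions, against 25% expected without an effect, so the deposited values hold almost no difference between numbers; the cause was not tested. Such values hold fewer residual degrees of freedom than the fit without the block counts, and its p-values tend to be too small. Whether a difference between numbers was taken out before deposit is not given in the sources used here. With the replicate number as a block, carriers numbered 2 higher and 0 lower with mLIF, 4 and 5 with mOSM, 6 and 6 with hlOSM, 0 and 2 for mOSM against mLIF, and 1 and 3 for hlOSM against mLIF. The block ended 13 of 42 called values, which then stood at adjusted p from 0.0507 to 0.106. Under the block, calls among all tested genes fell from 31.2% to 25.3% for mOSM against PBS and from 37.9% to 31.2% for hlOSM. No such share is given for the other comparisons and settings of this section. Their counts, above and below, are of carriers alone, and whether they moved apart from all genes was not tested. At an adjusted p under 0.01 there were 1 higher with mLIF, 3 higher and 2 lower with mOSM, 4 lower with hlOSM, 0 higher for mOSM against mLIF, and 0 higher and 3 lower for hlOSM against mLIF. Without a filter, 6 were lower with hlOSM and 0 higher for mOSM against mLIF, and with quantile normalization the latter was again 0. With only the libraries compared, 1 was lower with mLIF. TMM rescaling gave 6 higher and 8 lower with mOSM and 6 and 9 with hlOSM.

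Leaving out 1 library in turn gave 1 to 2 carriers higher and 0 to 1 lower with mLIF, 3 to 6 higher and 2 to 8 lower with mOSM (2 without PBS replicate 3), and 6 to 7 higher and 5 to 11 lower with hlOSM (5 without hlOSM replicate 1). It gave 0 to 1 higher and 2 to 4 lower for mOSM against mLIF, 0 to 2 higher and 3 to 6 lower for hlOSM against mLIF, and 0 to 1 lower for the interaction. Of 42 called values, 0 reversed in any setting. Values that did were not called, the largest being -0.18 for Slc25a1 with mOSM: with mLIF, Slc25a24 was -0.033 under quantile normalization and Slc25a28 0.00293 under TMM. Leaving out 1 library, the log2 changes with mLIF ran from -0.026 to 0.024 for Slc25a3, -0.0016 to 0.073 for Slc25a5, -0.10 to 0.20 for Slc25a10, -0.014 to 0.12 for Slc25a13, -0.054 to 0.065 for Slc25a24, -0.067 to 0.062 for Slc25a28, -0.092 to 0.067 for Slc25a33 and -0.17 to 0.17 for Slc25a42, and with mOSM from -0.35 to 0.13 for Slc25a1, -0.056 to 0.0091 for Slc25a3, -0.013 to 0.14 for Slc25a16 and -0.31 to 0.015 for Slc25a42.

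Slc25a12, Slc25a30, Slc25a36, Slc25a37 and Slc25a40 with mOSM and hlOSM, Slc25a37 with mLIF, and Slc25a15, Slc25a17, Slc25a22, Slc25a23 and Slc25a34 with hlOSM were called in every alternative that tested them. The depth of single values is unknown, and the 10 carriers under 50 had the widest errors. With 3 libraries a condition, the exact permutation test of sums and shares cannot go below p = 0.1.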
